A study of Mus musculus with 3 samples.

Results

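Gene deserts are long stretches of chromosome without annotated genes. Some hold distant regulatory sequence for the genes at their edges, and others can be removed with little visible effect. PARP-1 is an abundant nuclear enzyme that binds nucleosomes and broken DNA and builds chains of ADP-ribose on itself and on neighbouring chromatin proteins. The sites described here are the regions of changed PARP-1 signal that the authors' annotation placed in gene deserts. They were taken from the deposited table of differential sites as every entry of that annotation class on chromosomes 1 to 19, in both directions and without regard to the measured values. There were 209 such sites among the 1727 sites listed, or 12.1%. None of the 209 carried a gene name, and 0 lay inside a gene named elsewhere in the table; the annotation itself could not be checked without the mm9 genome.

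The signal came from PARP-1 ChIP-seq of the nucleus accumbens, a part of the ventral striatum, of C57BL/6 mice. Cocaine was injected intraperitoneally at 20 mg/kg once a day for 7 days, the control animals received saline on the same schedule, and tissue was taken 30 min after the last injection. Each replicate pooled tissue punches from 10 mice, and no source used here gives the age or sex of the animals. The labels state 3 replicates per group, while the table held values for 2 cocaine and 3 saline replicates, so SDs below have n = 2 after cocaine and n = 3 after saline. No source used here names a genotype or transgene. In bulk tissue a change in the number of cells carrying a site and a change per cell cannot be told apart.

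All values are the authors' normalized read counts, scaled with 1 factor per library. Within each library the values were whole multiples of the worth of 1 read, which gave reads back. Summed over the 209 sites, the cocaine libraries had 3951 and 2844 reads and the saline libraries 1296, 1691 and 1387. The shallowest library had 72.3% of the depth of the deepest, as read from the scaling factors. The mean count stayed under 100 at all 209, so the group consisted wholly of sites with few reads. Every site had been selected by the authors on these same libraries. Fold changes and passing tests below therefore describe the listed sites and do not estimate how much of the gene desert genome changed.

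After cocaine, 175 of the 209 gene desert sites carried more PARP-1 signal than after saline and 34 carried less. Higher sites thus made up 83.7%. Over all 1727 listed sites 92.9% were higher and 7.06% lower. Among sites of chromosomes 1 to 19, 36 of 701 other intergenic sites (5.14%) and 18 of 685 gene body sites (2.63%) were lower, against 16.3% of gene desert sites. In the smaller classes 4 of 85 promoter sites (4.71%) and 4 of 9 pericentromere sites (44.4%) were lower. Gene deserts thus held 12.4% of the 1689 autosomal sites, 11.0% of the higher ones and 35.4% of the 96 lower ones. These shares are given side by side as a description, with no test.

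Lower sites were spread over 14 chromosomes, and 5 chromosomes (2, 6, 10, 12 and 18) had higher sites only. Chromosome 3 held the most gene desert sites, with 20 higher and 4 lower. Chromosome 14 followed with 13 higher and 5 lower, and chromosome 4 held the most lower sites, 6 of its 17. On chromosomes 14 and 3, gene desert sites made up 23.1% and 21.1% of all listed sites. On chromosomes 6, 11 and 9 they made up 2.20%, 3.51% and 4.71%, with 2, 4 and 4 sites. Outside gene deserts, chromosome 14 had 0 lower sites among its other listed sites and chromosome 4 had 4.

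**Figure D1:**
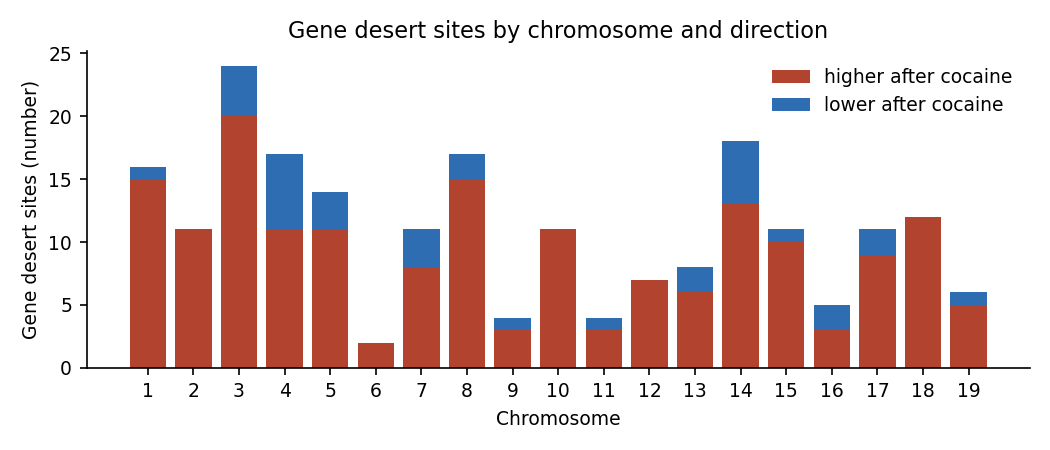
Number of gene desert sites on each of chromosomes 1 to 19, with sites higher after cocaine in red and sites lower after cocaine stacked above them in blue. Chromosome 3 has the tallest bar, 24 sites, and chromosome 4 the most lower sites, 6.

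At the 175 higher sites, cocaine replicate 1 ranged from 13.1 to 157.7 normalized reads with a median of 15.6, and replicate 2 from 13.6 to 62.5 with a median of 15.9. The 3 saline replicates had medians of 4.25, 5.47 and 5.46 at the same sites, with lowest values of 1.06, 0.91 and 0 and highest of 24.4, 36.5 and 31.7. At each of the 175 sites both cocaine replicates lay above all 3 saline replicates. Over the whole table this held at 1593 of the 1605 sites with a higher cocaine mean (92.2% of all listed sites). The median log2 ratio of the group means was 1.80, or 3.48-fold, and single sites ranged from 0.92 to 2.42. The median was 1.83 at other intergenic and 1.85 at gene body sites with a mean count under 100, so the 3 classes had similar medians.

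The 34 lower sites showed the mirror pattern. Their medians were 4.11 and 4.55 normalized reads in the cocaine replicates and 14.9, 16.4 and 16.4 in the saline replicates. No cocaine value exceeded 8.21 and no saline value was under 12.7. At each of the 34 sites both cocaine replicates lay below all 3 saline replicates. Over the whole table this held at 116 of the 122 sites with a lower cocaine mean (6.72% of all listed sites). The median log2 ratio was -2.04, or 4.13-fold lower after cocaine, with a range from -2.71 to -1.47. It was -2.06 at lower other intergenic sites and -2.00 at lower gene body sites.

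**Figure D2:**
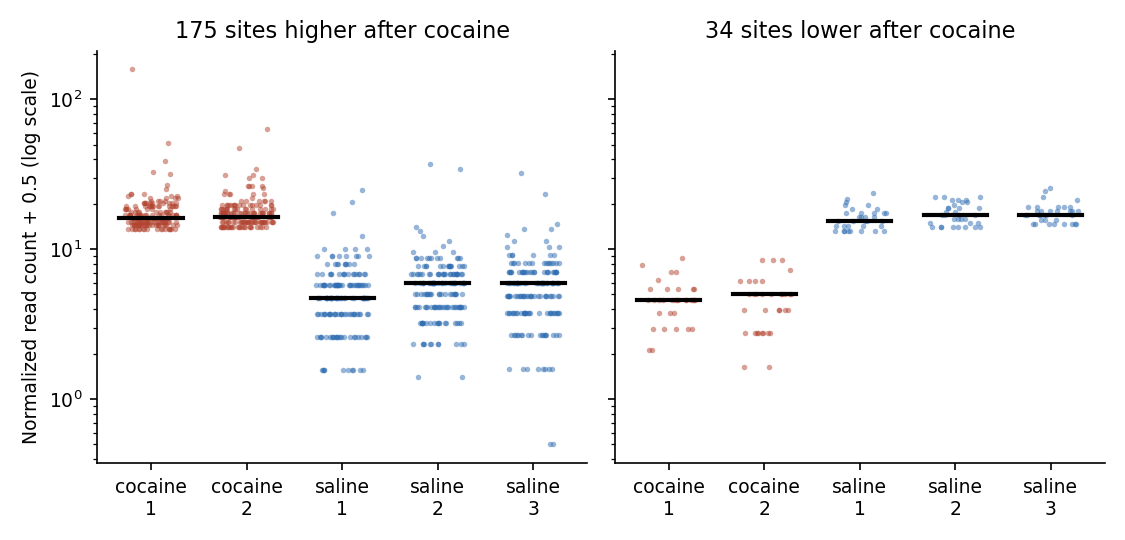
Normalized read count plus 0.5 (log scale) in each cocaine (red) and saline (blue) replicate at the 175 higher (left) and 34 lower (right) gene desert sites, 1 point per site, with black bars at the medians. The 2 cocaine replicates have like medians in each panel, and 1 point of cocaine replicate 1 at 157.7 stands far above the other values.

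limma's test on log2(value + 1), fitted on all 1727 sites with Benjamini-Hochberg adjustment, passed all 175 higher and all 34 lower gene desert sites at an adjusted p under 0.05. Over the whole table the same rule called 90.2% of sites higher and 5.27% lower, so passing was close to fixed for a listed site and says little about gene deserts. The adjusted p from limma ranged from 0.00537 to 0.0388 at the higher sites and from 0.00537 to 0.00836 at the lower ones. Fewer sites passed limma without cocaine replicate 1 or without cocaine replicate 2. Each of these 2 fits has a lone cocaine sample, which is assumed to vary like the saline samples. Without cocaine replicate 1 the median log2 ratio of group means was 1.81 at the higher and -2.01 at the lower sites. Without cocaine replicate 2 it was 1.77 and -1.90. An exact conditional binomial test on the reads of all 5 libraries, which measures counting error only, passed 175 higher and 34 lower sites after the same adjustment. Over all 1727 sites it passed 1587 higher (91.9%) and 109 lower (6.31%), where 1605 had a higher and 122 a lower mean.

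In the authors' deposited table all 209 sites had an adjusted p under 0.05, as did 99% of all listed sites. An adjusted p under 0.001 was reached by 34 higher and 4 lower gene desert sites, or 16.3% and 1.91% of the 209. Over the whole table these shares were 21.7% and 1.91%. Among the 38 gene desert sites past this stricter limit 89.5% were higher.

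Cocaine means at the 175 higher sites ran from 13.4 to 102.2 normalized reads with a median of 16.2. Of these sites, 36 (20.6%) had a cocaine mean within 1.1 times the lowest one. Of the 34 lower sites, 14 (41.2%) had a saline mean within 1.1 times the lowest one, 14.1. A typical higher site held 34 reads over the 2 cocaine libraries and 14 over the 3 saline libraries, and a typical lower site 8 and 48.5. In single libraries of the lower group, the cocaine counts went down to 2 reads and 1 read.

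**Figure D3:**
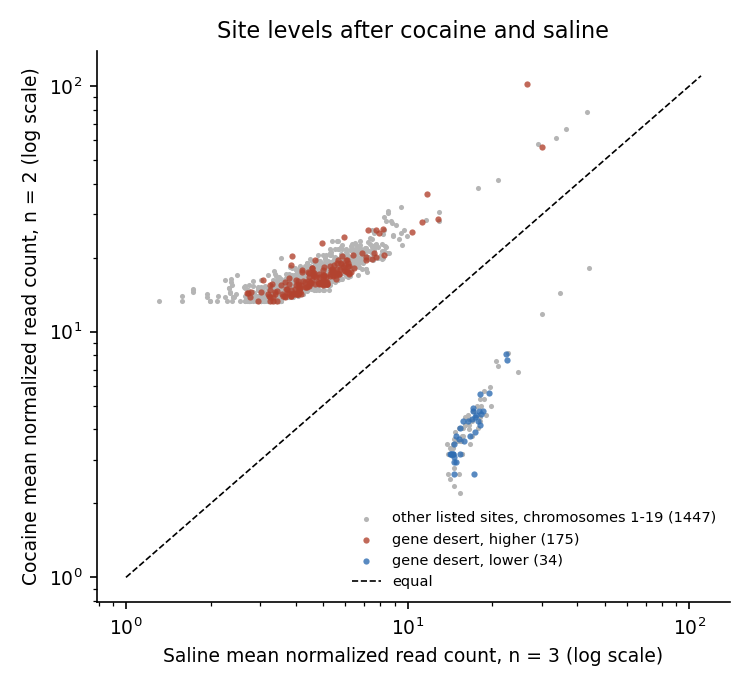
Mean normalized read count after cocaine (vertical) against saline (horizontal), both on log scales, for gene desert sites higher (red) and lower (blue) after cocaine and, in grey, the other autosomal listed sites with a mean count under 100. Gene desert sites lie within the 2 grey clouds, and 3 of them have a cocaine mean over 30.

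The background at gene desert sites could be set beside that of other listed sites. The deposited table gives each group's enrichment over a background, and dividing the group mean by its enrichment returns that background for each site. The values so obtained were whole multiples of 0.512, within 0.2 of a step, at 100% of 1567 higher sites, and of 0.4915 at 90.1% of 91 lower sites (all with a mean count under 100). One step was therefore taken as 1 background read. No source used here says which library these reads came from. The labels list a DNA input sample with no column of its own in the table.

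Higher gene desert sites had a median of 15 background reads per kb (interquartile range 11 to 19). Higher other intergenic sites had a median of 11 (8 to 14.5) and higher gene body sites 10.9 (7 to 14.5). Lower gene desert sites had a median of 23 background reads per kb (18.05 to 25.96), against 19 at lower other intergenic and 20 at lower gene body sites. In each of these 3 classes the lower sites thus had the higher median background. The table gives a single background per site, and no test of the difference was made.

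Sites of all classes on chromosomes 1 to 19 with a mean count under 100 were divided into 4 groups of about equal size by background reads per kb. In the group of lowest background, 0 of 24 gene desert sites and 0 of 432 other sites were lower after cocaine. In the second group 1 of 24 and 3 of 348 were lower, and in the third 4 of 59 (6.78%) and 10 of 391 (2.56%). In the group of highest background, 29 of 102 gene desert sites (28.4%) were lower, against 44 of 276 other sites (15.9%). Gene deserts had 102 of their 209 sites in that last group. The part of the background in the direction of the sites was not tested.

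**Figure D4:**
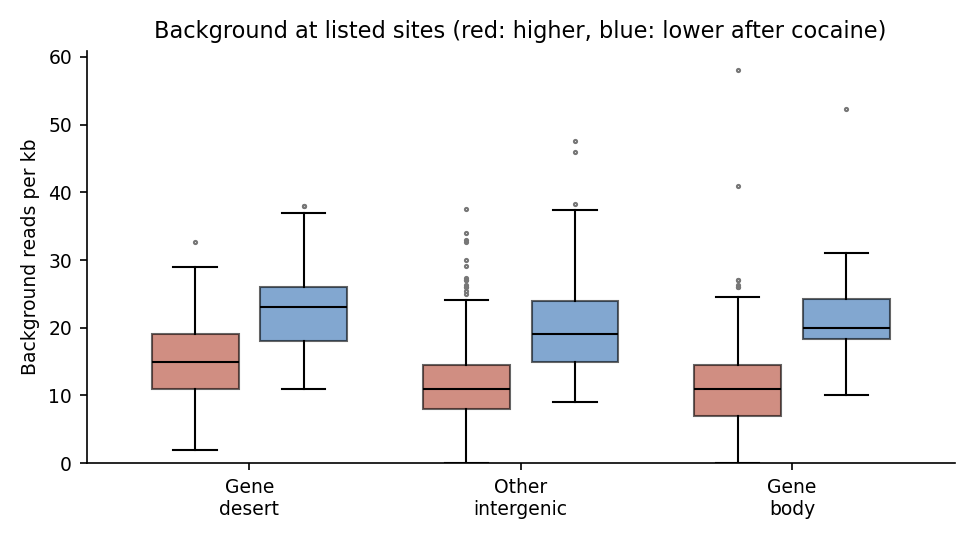
Background reads per kb at listed sites of chromosomes 1 to 19 with a mean count under 100, for 3 annotation classes and for sites higher (red) or lower (blue) after cocaine. Boxes span the interquartile range with the median as a line, whiskers reach to 1.5 times that range and dots are sites beyond it; the gene desert medians are 15 and 23.

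Enrichment is the ratio of a group's mean count to this background. Its median after cocaine was 2.10 at higher gene desert sites, 2.70 at higher other intergenic sites and 2.71 at higher gene body sites. After saline the medians were 0.63, 0.80 and 0.80. At 143 of the 175 higher gene desert sites (81.7%) the saline mean was below background, and at 2 sites the cocaine mean was as well. The corresponding share of saline means below background was 68.8% at other intergenic and 65.3% at gene body sites.

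Lower gene desert sites had a median enrichment of 1.41 after saline and 0.33 after cocaine. The cocaine mean was below background at all 34, and the saline mean at 3. With a mean count under 100, all 33 lower other intergenic and all 18 lower gene body sites also had cocaine means below background. Saline means were below it at 3 and 1 of them. Median enrichments there were 1.61 and 1.395 after saline and 0.39 and 0.315 after cocaine. Enrichment of 5 or more after cocaine was seen at 7 higher gene desert sites. The highest was 14.8, on chromosome 4 (103739801 to 103740800), where the cocaine replicates held 15.6 and 14.8 normalized reads and the saline replicates 2.12, 5.47 and 5.46. That enrichment rested on 2 background reads, and the site was picked after its values were seen.

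The widest gene desert site and the one with the most reads was on chromosome 17 (4625301 to 4627400, 2.1 kb). Its cocaine replicates held 157.7 and 46.6 normalized reads and its saline replicates 20.2, 36.5 and 22.9. Both cocaine values were above the saline values, but replicate 1 was far above replicate 2. The 2 cocaine libraries differed there beyond counting error (192 against 41 reads, with the depths allowed for, exact binomial p = 3.26e-15), and this was 1 of 2 higher gene desert sites with such an exact p under 0.05, against 0.869% of all listed sites. Only this one passed after Benjamini-Hochberg adjustment over all 1727 sites. limma's log2 fold change was 1.70 ± 0.57 (SE) with an adjusted p of 0.0268. Without cocaine replicate 1 it was 0.83 with an adjusted p of 0.161, and limma's adjusted p was 0.0561 without cocaine replicate 2, 0.0688 without saline replicate 1 and 0.0685 without saline replicate 3. The nearest gene named elsewhere in the table was Zdhhc14, of a palmitoyltransferase family, 0.87 Mb away. Here and below such a gene is the nearest among the genes with a listed site, not the nearest gene of the genome.

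At the next sites by mean count the cocaine replicates lay closer to each other. A chromosome 8 site (56205101 to 56206200) held 50.9 and 62.5 normalized reads after cocaine and 24.4, 33.7 and 31.7 after saline. The groups did not overlap, and the log2 ratio of 0.92 was the smallest of all 175 higher sites. It lay 58.9 kb from Gpm6a, which encodes a neuronal membrane glycoprotein. A chromosome 12 site (44148601 to 44150500) held 38.6 and 34.1 after cocaine and 9.56, 13.7 and 12.0 after saline. In the authors' deposited table its adjusted p, 8.26e-06, was the smallest of all gene desert sites. A chromosome 4 site (121666001 to 121667000) held 31.2 and 26.1 after cocaine and 17.0, 8.21 and 13.1 after saline, with the 3 saline values well apart. Among these 3 sites limma's log2 fold changes were 0.90 ± 0.27, 1.56 ± 0.26 and 1.16 ± 0.35 (SE).

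By adjusted p in the authors' deposited table, the next of the 6 leading higher sites was also on chromosome 12 (65273001 to 65274600). It held 23.0 and 22.7 normalized reads after cocaine and 6.37, 6.38 and 2.18 after saline, a 4.59-fold difference. A chromosome 7 site (131185601 to 131186800) held 18.9 and 21.6 after cocaine and 1.06, 7.29 and 3.28 after saline. Its saline replicates ranged from 1 read to 8, and limma's log2 fold change was 2.34 ± 0.58 (SE). A chromosome 6 site (11187501 to 11189000), 1 of the 2 gene desert sites of that chromosome, held 26.3 and 26.1 after cocaine and 5.31, 8.21 and 10.9 after saline. The nearest listed gene was Nxph1, which encodes a secreted ligand of neurexins, 1.99 Mb away.

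The last of these 6 sites lay on chromosome 12 (28174101 to 28175600), 146.5 kb from Sox11, the gene of a transcription factor of developing neurons. The cocaine replicates held 22.2 and 29.5 normalized reads and the saline replicates 5.31, 5.47 and 10.9. A neighbouring higher site (28147801 to 28148800), 25.3 kb before it and 120.2 kb from Sox11, held 13.97 and 14.8 after cocaine and 2.12, 4.56 and 5.46 after saline. In both sites the groups were separate. In all, 9 of the 209 sites lay within 200 kb of a listed gene. The closest, on chromosome 10, was 30.4 kb from Pcdh15, which encodes a protocadherin of hair-cell tip links. The median distance was 2.34 Mb.

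The largest ratios belonged to sites with very few saline reads. The highest, a log2 ratio of 2.42, was on chromosome 18 (82525301 to 82526400). The cocaine replicates held 14.0 and 14.8 normalized reads there and the saline replicates 5.31, 2.74 and 0. limma's adjusted p was 0.0230 and became 0.0530 without saline replicate 2, 0.0875 without cocaine replicate 1 and 0.0944 without cocaine replicate 2. A chromosome 10 site (17111301 to 17112400) held 14.0 and 14.8 after cocaine and 2.12, 2.74 and 3.28 after saline, a closer set of saline values, with a log2 ratio of 2.40. It rested on 30 cocaine and 8 saline reads. Its enrichment was 1.17 after cocaine and 0.23 after saline, so the cocaine level was near background.

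A chromosome 4 site (78850101 to 78851100) had a log2 ratio of 2.39, with 13.1 and 15.9 normalized reads after cocaine and 2.12, 1.82 and 4.37 after saline. The nearest listed gene was Ptprd, a receptor tyrosine phosphatase gene, 2.61 Mb away. On chromosome 17 (92989401 to 92990400), 14.0 and 13.6 after cocaine stood against 3.19, 1.82 and 3.28 after saline. In all, 20 higher gene desert sites had 10 or fewer saline reads over the 3 libraries. Low saline levels were not particular to gene deserts. The median saline mean was 4.80 at higher gene desert sites. With a mean count under 100, it was 4.46 at higher other intergenic and 4.37 at higher gene body sites.

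Among the lower sites the largest ratio and, in the authors' deposited table, the smallest adjusted p, 0.00019, fell on the same site, on chromosome 9 (12170901 to 12172100). Its saline replicates held 17.0, 18.2 and 16.4 normalized reads and its cocaine replicates 4.11 and 1.14. The saline values were close to each other and the cocaine values were 5 reads and 1 read. The difference was 6.55-fold, and limma's log2 fold change was -2.46 ± 0.41 (SE). The site was at 1.67 times background after saline and 0.24 times after cocaine. A chromosome 7 site (100999801 to 101000800) had the same cocaine values, 4.11 and 1.14, with 12.7, 13.7 and 17.5 after saline.

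A second lower site on chromosome 7 (68377201 to 68378200) held 13.8, 16.4 and 14.2 normalized reads after saline and 2.46 and 3.41 after cocaine. Its nearest listed gene was Apba2, an adaptor gene of neuronal vesicle traffic, 3.27 Mb away. On chromosome 13, 2 lower sites lay 696.4 kb apart. The first (4877901 to 4879100) held 17.0, 16.4 and 18.6 after saline and 3.29 and 4.55 after cocaine, and the second (5575501 to 5576500) 12.7, 13.7 and 17.5 after saline and 2.46 and 3.41 after cocaine. Of the 56 neighbouring pairs of gene desert sites within 1 Mb, they were 1 of the 2 in which both were lower. Lower sites were 16.3% of all gene desert sites.

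The chromosome 16 site (68161101 to 68162100) was the most depleted relative to background, at 0.16 times after cocaine and 0.81 times after saline. Its cocaine replicates held 1.64 and 4.55 normalized reads and its saline replicates 15.9, 13.7 and 14.2; its 37 background reads were above the median of 23. On chromosome 11 (37728401 to 37729400) a lower site held 4.11 and 2.27 after cocaine and 12.7, 14.6 and 18.6 after saline. It was above background after saline, at 2.07 times. The 4 lower sites of highest mean included a chromosome 8 site (58014601 to 58015600) with 23.4, 21.9 and 21.8 after saline and 8.21 and 7.95 after cocaine. Its ratio, -1.47 on the log2 scale, was the smallest of the lower sites, and it lay 0.40 Mb from Glra3, a glycine receptor subunit gene.

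On chromosome 14, 4 gene desert sites had Pcdh9, a protocadherin gene with a listed site of its own, as the nearest listed gene. The closest of them (92055201 to 92056200, 1.36 Mb before the gene) was higher, with 14.8 and 14.8 normalized reads after cocaine and 3.19, 1.82 and 6.55 after saline. The other 3 were lower, and 2 of these are among the named sites. One before the gene (90516101 to 90517300) held 14.9, 21.9 and 17.5 normalized reads after saline and 4.93 and 3.41 after cocaine, 2.90 Mb from the gene. The one after it (96075301 to 96076800) held 21.2, 20.97 and 25.1 after saline and 7.39 and 7.95 after cocaine, 1.79 Mb away. This last site had 57 background reads over its 1.5 kb and was below background in both groups, at 0.80 and 0.26 times. Chromosome 17 held 2 lower sites, at 59259201 to 59260300 and 76884401 to 76885500. They held 14.9, 20.1 and 20.7 and 17.0, 17.3 and 24.0 after saline, against 4.93 and 4.55 and 3.29 and 7.95 after cocaine.

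Spacing was measured first between gene desert sites. The median gap between neighbouring ones on a chromosome was 4.02 Mb, and 98 of the 209 (46.9%) had another within 1 Mb. At 500 kb this share was 37.3% and at 2 Mb 57.9%. Within 100 kb, 20 sites had another gene desert site and 21 had a listed site of any class. Within 1 Mb, 134 of the 209 (64.1%) had a listed site of any class. Joining sites no more than 1 Mb apart gave 111 single sites, 30 pairs, 10 runs of 3 and 2 runs of 4. Of the 56 neighbouring pairs within 1 Mb, 39 were both higher, 2 both lower and 15 opposite. Higher sites were 83.7% of the 209, so most pairs would be both higher even with direction unrelated to position. Whether neighbours shared a direction was not tested.

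The shortest of the runs of 4 spanned 565.9 kb on chromosome 18, and all its sites were higher. The first (81960501 to 81961500) held 15.6 and 15.9 normalized reads after cocaine and 6.37, 2.74 and 5.46 after saline. The second (82278501 to 82279500) held 14.8 and 22.7 against 4.25, 4.56 and 7.64, and the third (82500601 to 82501800) 21.4 and 15.9 against 2.12, 7.29 and 2.18. The fourth, 23.5 kb further, was the site of largest ratio described above. The third was at 5.20 times background after cocaine and 1.12 after saline. The nearest listed gene was Zfp236, which encodes a zinc finger protein, from 0.80 Mb at the first site to 0.24 Mb at the last.

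The other run of 4, over 2.47 Mb of chromosome 14, alternated in direction. Its first site (106821901 to 106823000) held 17.3 and 17.0 normalized reads after cocaine and 4.25, 6.38 and 6.55 after saline. The second (107735101 to 107736100) was lower, with 6.57 and 4.55 after cocaine and 19.1, 20.97 and 14.2 after saline. The third (108605801 to 108606800) was higher again, with 14.8 and 13.6 against 3.19, 5.47 and 3.28. The fourth (109291701 to 109292700) was lower, with 4.11 and 4.55 against 17.0, 13.7 and 18.6. At each of the 4 sites the groups did not overlap. The first had 36 background reads and stayed under background even after cocaine, at 0.93 times, whereas the fourth was at 2.39 times background after saline. The nearest listed gene was Ednrb, an endothelin receptor gene, between 2.58 and 5.05 Mb away.

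A run of 3 higher sites on chromosome 3 spanned 474.3 kb. It was the shortest of the 10 runs of that size and was named for that reason. Its sites held 13.1 and 14.8, 14.8 and 17.0, and 13.1 and 19.3 normalized reads after cocaine. The saline replicates held 2.12, 4.56 and 4.37 at the first site, 2.12, 7.29 and 5.46 at the second and 2.12, 2.74 and 4.37 at the third. Saline replicate 1 had the same value at all 3, 2 reads each.

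**Figure D5:**
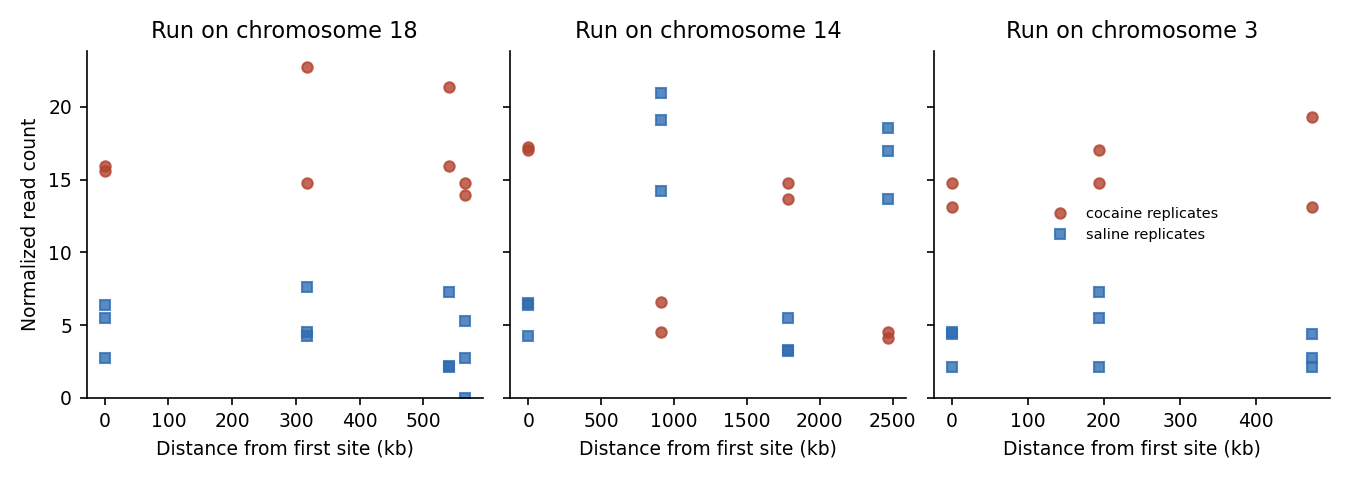
Normalized read count of each cocaine (red circles) and saline (blue squares) replicate at the sites of 3 runs, against the distance in kb from the first site of the run. On chromosomes 18 and 3 all sites are higher after cocaine, and on chromosome 14 the direction alternates.

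Opposite sites came closest on chromosome 8, 56.8 kb apart. The first (103288201 to 103289200) held 14.8 and 13.6 normalized reads after cocaine and 1.06, 6.38 and 3.28 after saline. The second (103346001 to 103347200) held 2.46 and 6.82 after cocaine and 18.05, 18.2 and 18.6 after saline. The first was near background after cocaine, at 1.03 times, and the second near it after saline, at 1.20 times. Their limma log2 fold changes were 1.92 ± 0.54 and -1.89 ± 0.39 (SE), with adjusted p of 0.016 and 0.00654.

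Most sites had the smallest width in the table, 1 kb: 105 of the 175 higher sites (60.0%) and 26 of the 34 lower ones (76.5%). Among other intergenic sites these shares were 56.0% and 69.7%. Across the 175 higher sites, the correlation of background reads with the saline mean was Pearson r = 0.35 and Spearman rho = 0.24, and with the log2 ratio r = -0.19 and rho = -0.16. Across the 34 lower sites it was r = 0.51 and rho = 0.24 with the saline mean and r = 0.41 and rho = 0.24 with the log2 ratio. The other autosomal sites with a mean count under 100 were 1390 higher and 57 lower ones. Across the higher ones it was r = 0.46 and rho = 0.29 with the saline mean, and r = -0.30 and rho = -0.25 with the log2 ratio. Across the lower ones it was r = 0.86 and rho = 0.62 with the saline mean, and r = 0.64 and rho = 0.54 with the log2 ratio. These are descriptions over sites that share the same libraries, and the background and the counts also share the site's width.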

How the data were processed

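PARP-1 ChIP-seq of mouse nucleus accumbens used antibody ab6079, fragments of 250 to 350 bp, 21 PCR cycles and reads of 100 bp, per the labels' protocols. The submitters' processing notes name the mm9 build and CASAVA 1.8.2. No source used here gives the aligner, duplicate handling or listing threshold. Coordinates are those of the deposited table. Its name gives diffReps, a negative binomial test and cocaine against saline. Its treatment column was taken as cocaine and its control column as saline. Which 2 of the labelled cocaine replicates it holds is not stated, and replicate numbers here give only their order in the table.

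The deposited count columns hold read counts normalized by the authors, several replicates to a cell. The deposited group averages are the signal per group, averaged over these. The deposited enrichment is each group's ratio to the authors' background, infinite at 2 sites, 0 of them in gene deserts. The authors' deposited fold change is log2. The deposited p-value columns are the authors' own. Steps in the values gave whole reads for 100% of values within 0.1 read.

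limma 3.58.1 (R 4.3.3) was fitted to log2(value + 1) of all 1727 sites with no covariate, and an exact two-sided binomial test set the cocaine share of reads against the cocaine share of depth, 41.5%. Both were run on simulated counts with counting error only and no selection of sites, unlike the listed sites. limma's p-values measure the spread between these pools only. Fold changes on the log2(value + 1) scale are understated at low counts. Ratios of group means carry no pseudocount. Reads were amplified by PCR and carried no molecular identifiers, so read-based tests cover counting error only.

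Named sites were, per direction, the 6 with the smallest authors' adjusted p, the 6 with the largest ratio and the 4 with the highest mean, plus 3 runs, the closest opposite pair and the widest site. Ties between runs went to the shorter. The members, rules and tests were chosen with earlier results of these data known.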

Additional observations from a re-analysis of the deposited data

How the results depend on the processing

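Every gene desert site kept its direction when each replicate was left out in turn (209 of 209 in all 5 settings). The limma counts did not all hold. Without a saline replicate 172 to 173 higher and 34 lower sites passed, and without either cocaine replicate fewer of both did. The fits without a cocaine replicate have a lone cocaine sample, so their counts over the 209 sites are not given. With pseudocounts of 0.5 and 2, a trend of the spread on the mean, sites under a mean of 100 only, or scaling by the sites of high count, limma passed 173 to 175 higher sites and 34 lower ones.

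An authors' adjusted p under 0.001 left 34 higher and 4 lower sites, 89.5% higher, with median log2 ratios of 2.03 and -2.24. Over the whole table the same limit left 375 higher and 33 lower sites. A pseudocount of 1 on each group mean gave medians of 1.60 and -1.80. Leaving out 1 replicate gave medians from 1.74 to 1.83 at higher and from -2.09 to -1.90 at lower sites. Adding chromosomes X and Y gave 176 higher and 36 lower sites. The share of sites with another within reach was 37.3% at 500 kb and 57.9% at 2 Mb. Of the 36 named sites, 24 stayed past limma's threshold without cocaine replicate 1, 0 without cocaine replicate 2 and 35 without each saline replicate. The cause of these shifts was not tested, except that the single-sample cocaine fits have fewer samples. edgeR was not run. No paired analysis was possible because the table's replicates carry no numbers or pairing. Depth limits single sites: the lower group of a site often held under 10 reads per library.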

Other observations

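The table listed 3 further gene desert sites, all on chromosome X, and they differed in level from those on chromosomes 1 to 19. At 73843401 to 73845000 the cocaine replicates held 361 and 387 normalized reads and the saline replicates 407, 389 and 403. At 121303701 to 121304700 the values were 170.1 and 165.9 after cocaine and 208, 188 and 181 after saline. At 121307401 to 121308900 they were 907 and 925 after cocaine and 921, 888 and 844 after saline. The log2 ratios of group means were -0.09, -0.20 and 0.05, against medians of 1.80 and -2.04 at the autosomal sites. In the authors' deposited table their adjusted p were 1, 0.000881 and 0.349.

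Saline replicate 3 was at 0 reads at 2 higher gene desert sites, the chromosome 18 site of largest ratio and a chromosome 13 site (87057301 to 87058300) with 14.8 and 13.6 normalized reads after cocaine and 3.19, 6.38 and 0 after saline.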
